A study of Mus musculus with 3 samples.

Results

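The report concerns 5 genes for the handling of carbon dioxide and bicarbonate in mouse brown adipose tissue (BAT): the carbonic anhydrases Car2, Car3, Car4 and Car5b and the bicarbonate transporter Slc4a4. They are 5 of the 25154 genes with a column in at least 1 of the 3 tables, and all 5 had a column in every table. Car3 and Slc4a4 were chosen for their high counts in adipocyte nuclei of the sham library, so their levels there, and every ratio that holds those levels, are given as a description. The other 3 genes completed the group.

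Nuclei were measured in 3 libraries of BAT, labelled as wild-type C57Bl6 adults, 1 each of untreated, sham-operated and denervated tissue. The header of the denervated table names its run nKO, a term the labels do not explain, and that of the untreated table nC, so the genotype and treatment given here rest on the labels. The study's text gives 20 mice, aged 8 weeks, for each of the untreated and denervated libraries. For the denervated one it also gives tamoxifen administration and sampling on day 3 after cutting the nerves of one side. Its methods state that all mice of the study were male. The sham library has a label but no description in the methods, and its side, day and number of mice are not given in the sources used here. For its other experiments the study names a sham operation of the opposite, intact side and also separate sham-operated BAT. It does not say whether the sham library is either of these. Nuclei came from the floating layer of the digested tissue, which holds fat-laden adipocytes with pieces of vessels, and each condition was 1 library with no split by animal, so each is 1 measurement and no test between conditions was possible.

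Carbonic anhydrases convert carbon dioxide and water to bicarbonate and a proton and back. They differ mainly in place: Car2 and Car3 are cytosolic, Car4 is anchored to the outer face of the plasma membrane, and Car5b lies in mitochondria, where bicarbonate feeds carboxylases. Car3 is a slow enzyme that is very abundant in adipose tissue and in slow skeletal muscle, while Car4 marks capillary endothelium in several organs. Slc4a4 encodes NBCe1, which moves bicarbonate together with sodium across the plasma membrane and so sets the pH of the cell. Brown fat burns fuel to carbon dioxide at a high rate and takes bicarbonate back into fatty acid synthesis through acetyl-CoA carboxylase.

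Levels are given in CPM, the count of unique molecular identifiers (UMIs, captured molecules counted once) per 1000000 UMIs of the class of nuclei, with the 95% Poisson interval in brackets. Intervals cover counting error only, since 1 library gives no spread between replicates. The libraries held 14971579, 14725864 and 9420030 UMIs in the order untreated, sham, denervated, which is the order of all triple values below. The sham library stood apart with 12.9% mitochondrial UMIs, against 6.71% and 2.95%, and with 16.5% of nuclei removed as doublets, against 10.4% and 7.42%. Kept nuclei of any pair of libraries shared 108 to 137 barcode numbers.

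Classes were named by marker genes and carry the ending -like. The brown adipocyte-like (BA-like) nuclei, 4199, 3404 and 5104 of them, had 344, 403 and 307 CPM of Ucp1, the uncoupling protein of brown fat. The white adipocyte-like (WA-like) nuclei, 136, 789 and 866 of them, had 75.7, 42.9 and 77.5 CPM of Ucp1 but 586, 607 and 764 CPM of Slc7a10, an amino acid transporter of white fat, against 2.20, 35.6 and 14.5 CPM in BA-like nuclei. The 10 brown markers summed to 1515, 1105 and 1251 CPM in WA-like and 5466, 6398 and 6829 CPM in BA-like nuclei. In EC-like nuclei they summed to 614, 375 and 904 CPM. The 5 white markers summed to 1661, 2130 and 1523 CPM in WA-like and 143, 171 and 188 CPM in BA-like nuclei. Lep, the leptin gene on that list, did not follow it throughout, with 167 [115 to 234], 62.0 [46.3 to 81.3] and 98.9 [77.6 to 124] CPM in WA-like and 126 [119 to 134], 27.5 [23.1 to 32.6] and 124 [115 to 134] CPM in BA-like nuclei. The endothelial-like (EC-like) nuclei numbered 5008, 5418 and 2232 and the pericyte-like (PC-like) nuclei 590, 1396 and 798. Most WA-like nuclei of the sham library were also led by Thbs1 and the chemokine gene Cxcl10, and those of the denervated library by the immune genes Cxcl1 and Ptx3.

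**Figure D1:**
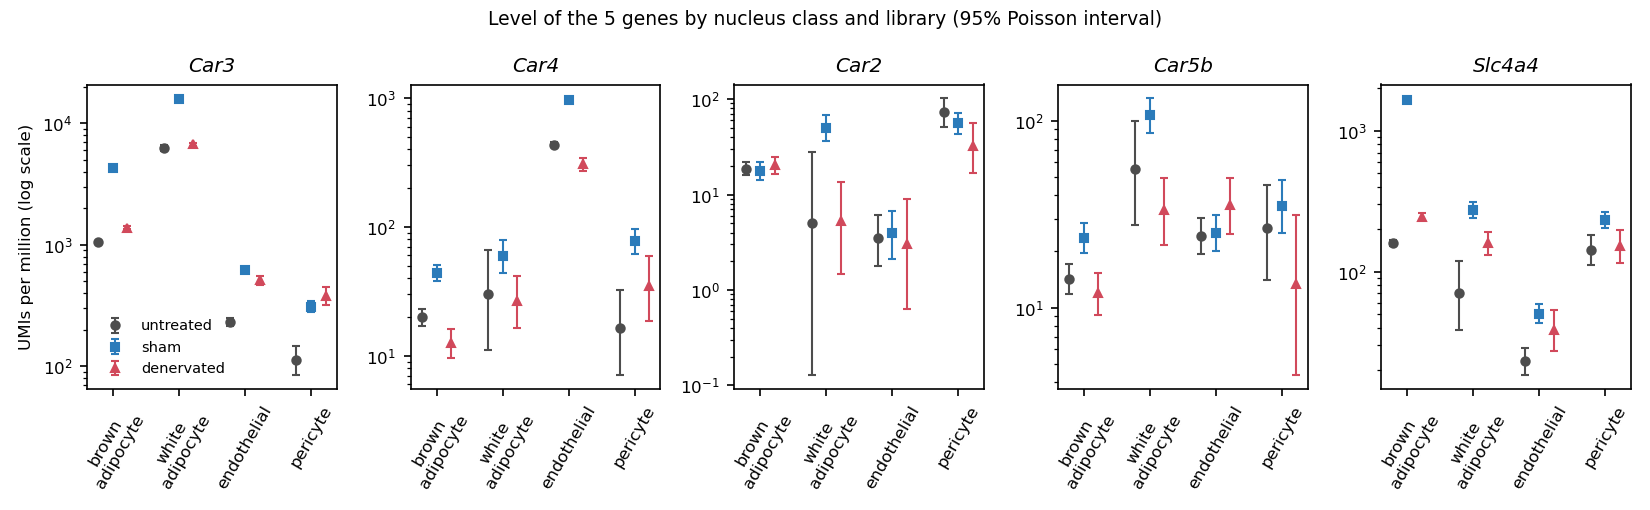
Level of each of the 5 genes in CPM (log axis) in 4 classes of nuclei, for the untreated (circles), sham (squares) and denervated (triangles) libraries, with 95% Poisson intervals. Car3 was highest in white adipocyte-like nuclei, Car4 in endothelial-like nuclei and Slc4a4, in the sham library, in brown adipocyte-like nuclei.

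Car3 (chromosome 3, 14863512 to 14872523, plus strand, GRCm38) was an adipocyte gene in every library, and more a gene of WA-like than of BA-like nuclei. WA-like nuclei had 6267 CPM [5923 to 6626] in the untreated, 15770 [15502 to 16041] in the sham and 6742 [6557 to 6931] in the denervated library. BA-like nuclei had 1056 [1034 to 1078], 4248 [4191 to 4306] and 1387 [1356 to 1420] CPM. The WA-like level thus lay above the BA-like level in 3 of 3 libraries, by log2 ratios of 2.57 [2.48 to 2.66], 1.89 [1.86 to 1.92] and 2.28 [2.23 to 2.33].

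A log2 ratio of at least 1 for WA-like over BA-like nuclei was held by 11.8%, 9.57% and 10.4% of genes with a mean of at least 10 CPM over both classes. Of the 5 genes, 2, 3 and 3 passed it. Car3 and Car5b did so in all 3 libraries, Car2 in the sham library and Car4 in the denervated library. Nothing is read from the sham count, since Car3 was chosen on sham adipocyte values. In WA-like nuclei the Car2 pass rests on 42 UMIs and the Car4 pass on 20. Those 20 came to 26.7 CPM, below the 265 CPM of Car4 in denervated barcodes with under 200 detected genes.

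The skeletal muscle list, which bears on Car3 because muscle fibres hold it too, summed to 30.3, 172 and 53.4 CPM in WA-like nuclei and to 14.2, 22.1 and 23.7 CPM in BA-like nuclei. In sham WA-like nuclei 4 of its 11 genes had a UMI. The muscle actin gene Acta1 gave 140 of those 144 UMIs, and Ttn, Mylpf, Tnnt3 and all 4 myosin genes of the list were at 0.

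Below the adipocytes Car3 was low and its order was less clear. In the untreated library, immune-like nuclei had 382 CPM [245 to 569], EC-like nuclei 232 [217 to 249], smooth muscle-like nuclei 182 [91.0 to 326] and PC-like nuclei 112 [84.7 to 146]. In the sham library EC-like nuclei had 624 CPM [597 to 651], smooth muscle-like 507 [425 to 599], immune-like 421 [275 to 617] and PC-like 311 [279 to 346]. In the denervated library fibroblast-like nuclei had 479 CPM [288 to 748], EC-like 512 [469 to 559], immune-like 438 [338 to 560] and PC-like 381 [321 to 449], where the intervals of EC-like and PC-like nuclei did not overlap and the others did. The 126 Schwann-like nuclei of the sham library had 1798 CPM [1508 to 2126], all from 20.6% of them, beside 1731 CPM of the adipocyte marker list.

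Free RNA was measured beside these levels. Barcodes with under 200 detected genes, taken as a measure of free RNA, had 294, 913 and 459 CPM of Car3, so EC-like and PC-like nuclei lay below them in the untreated and sham libraries, and sham Schwann-like nuclei above. In EC-like nuclei 0.183, 0.505 and 0.352 Car3 UMIs came with each UMI of the adipocyte list, against 0.158, 0.604 and 0.200 in BA-like nuclei. A free RNA profile, scaled so that the adipocyte list set its share at 45.6%, 94.9% and 59.8% of the UMIs of EC-like nuclei, was then subtracted. This gave 150 and 0 CPM of Car3 in the untreated and sham EC-like nuclei. The denervated ones came to 575, above the 512 CPM before subtraction. The scaling takes all UMIs of the list in EC-like nuclei as free RNA, which was not tested. Pparg alone gave 2219 of 4389, 2185 of 4074 and 642 of 1436 of these UMIs. At a share as high as 94.9%, a gene well below its free level comes to 0 by construction.

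Between libraries, Car3 in BA-like nuclei was highest in the sham library. The log2 ratio was 2.01 [1.97 to 2.04] for sham over untreated, 0.39 [0.35 to 0.44] for denervated over untreated and -1.61 [-1.65 to -1.58] for denervated over sham. Over all 9455 genes with a mean of at least 10 CPM in BA-like nuclei, the median log2 ratio was -0.04, -0.02 and 0.02 for the same contrasts. Only the middle contrast is free of the sham values by which Car3 was chosen. There, 1268 of these genes had a higher ratio than Car3.

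WA-like nuclei had a like order, with a log2 ratio of 1.33 [1.25 to 1.42] for sham over untreated, 0.11 [0.02 to 0.20] for denervated over untreated and -1.23 [-1.27 to -1.18] for denervated over sham. At a mitochondrial share of 2.5% to 5%, the 67 untreated, 278 sham and 117 denervated WA-like nuclei had 7981 [7438 to 8554], 19019 [18528 to 19521] and 6675 [6175 to 7205] CPM of Car3, so there the denervated level was below the untreated one. Below 2.5% the 60 untreated and 742 denervated nuclei had 4079 [3666 to 4526] and 6758 [6559 to 6962] CPM. By depth, untreated and denervated WA-like nuclei with under 1000 UMIs had 6348 [5440 to 7365] and 6336 [6094 to 6586] CPM. At 1000 to 2000 UMIs they had 7411 [6910 to 7938] and 7406 [7112 to 7710] CPM, so the intervals overlapped in both depth bins.

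Slc4a4 (chromosome 5, 88886818 to 89239653, plus strand, GRCm38), the sodium bicarbonate cotransporter, was higher in BA-like than in WA-like nuclei. BA-like nuclei had 160 CPM [151 to 169] in the untreated, 1662 [1626 to 1699] in the sham and 246 [232 to 260] in the denervated library. WA-like nuclei had 70.7 [38.7 to 119], 274 [240 to 312] and 159 [132 to 190] CPM. The log2 ratio of WA-like over BA-like nuclei was -1.18 [-2.05 to -0.42], -2.60 [-2.80 to -2.41] and -0.63 [-0.91 to -0.36], the reverse of the order for Car3 in all 3 libraries.

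Slc4a4 was also found outside the adipocytes, in pericytes and fibroblasts among others. PC-like nuclei had 143 CPM [112 to 181], 233 [205 to 263] and 153 [116 to 198], and in the untreated library their interval overlapped that of BA-like nuclei. EC-like nuclei had 23.1 [18.4 to 28.8], 50.3 [42.9 to 58.5] and 38.6 [27.3 to 52.9] CPM, beside 20.1, 98.1 and 52.7 CPM in the barcodes with under 200 genes. PC-like nuclei stood above EC-like nuclei by log2 ratios of 2.63 [2.14 to 3.11], 2.21 and 1.99 [1.37 to 2.62], the sham one with a lower bound of 1.92. The 29, 49 and 66 fibroblast-like nuclei had 116 [24.01 to 340.2], 359 [185 to 627] and 277 [138 to 496] CPM, from 3, 12 and 11 UMIs. In the sham library, Slc4a4 gave 22 of 75659 UMIs in Schwann-like and 35 of 270456 in smooth muscle-like nuclei. In the untreated library each of these classes had 1 UMI, and denervated Schwann-like nuclei had 2.

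The Slc4a4 ratio in BA-like nuclei was 3.38 [3.30 to 3.47] on the log2 scale for sham over untreated and -2.76 [-2.84 to -2.67] for denervated over sham, values that hold the sham level by which the gene was chosen. The denervated over untreated ratio, which does not hold the sham values, was 0.62 [0.51 to 0.73], and 623 of the 9455 genes had a higher one. It was not seen in the nuclei with under 1000 UMIs, where the 263 untreated and 2967 denervated ones had 279 [214 to 358] and 279 [256 to 302] CPM of Slc4a4. In PC-like nuclei the 3 ratios were smaller, at 0.70 [0.31 to 1.10], -0.61 [-1.05 to -0.19] and 0.09 [-0.44 to 0.62].

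A log2 ratio of at least 1 in BA-like nuclei was held by 6.98% of these genes for sham over untreated, and by 3 of the 5 genes, Car3, Car4 and Slc4a4. For denervated over sham, 7.53% of genes were lower by as much, and the same 3 genes were. For denervated over untreated, 1.94% of genes were higher by as much, and none of the 5 was. Nothing is read from the first pair of counts, as 2 of the 3 genes were chosen on the sham values. Car4 had 19.9 and 44.0 CPM in untreated and sham BA-like nuclei, below the 163 and 432 CPM in barcodes with under 200 genes. With free RNA subtracted, 11.7 and 13.9 CPM of it were left.

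Slc4a4 has 2 starts in RefSeq, and counts per gene do not tell them apart. The 150 bases before each start are shown because the gene has more than 1 start and is a main gene of the report, with any of 4 short motifs in capitals on either strand: the TATA box TATAAA, the motif CCAAT known from factor NF-Y, the GC box GGGCGG, and TGACG, the core of the element bound by the cAMP-responsive factor CREB. They are RefSeq sequences on GRCm38.p6, 5′ to 3′ on the plus strand, from chr5:88887110-88887259 and chr5:89027816-89027965.
Slc4a4, first start: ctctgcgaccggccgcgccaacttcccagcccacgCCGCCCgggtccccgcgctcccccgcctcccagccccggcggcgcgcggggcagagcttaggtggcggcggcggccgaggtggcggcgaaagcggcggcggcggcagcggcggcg
Slc4a4, second start: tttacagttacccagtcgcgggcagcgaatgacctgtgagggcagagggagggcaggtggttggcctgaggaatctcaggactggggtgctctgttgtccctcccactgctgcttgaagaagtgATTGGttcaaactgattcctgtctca

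The first window was 83.3% G or C and held 1 GGGCGG, read on the minus strand, from 115 bases before the start. The second was 55.3% G or C, near the median of 54% over 32851 RefSeq promoters, and held 1 CCAAT, also on the minus strand, from 26 bases before the start. GGGCGG stood in 28.6% of all such windows and CCAAT in 24.5%. TATAAA, in 7.57% of windows, and TGACG, in 13.3%, were in neither. The GENCODE annotation starts the gene at base 88886818, unlike RefSeq, so by it both windows lie within the gene.

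**Figure D2:**
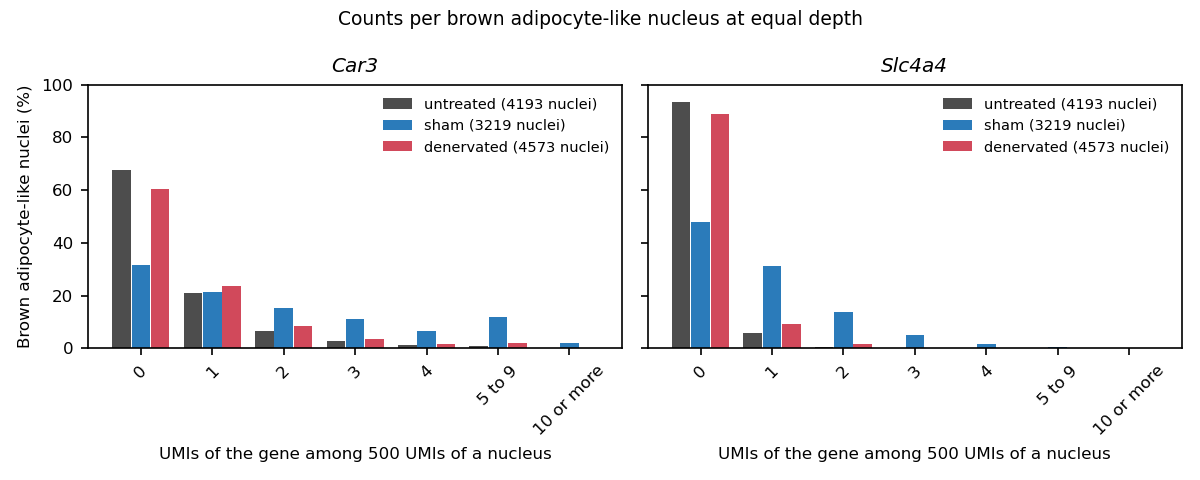
Share of brown adipocyte-like nuclei (%) with a given number of Car3 or Slc4a4 UMIs after each nucleus was drawn down to 500 UMIs, for 4193 untreated, 3219 sham and 4573 denervated nuclei. The nuclei with none made up 67.4%, 31.5% and 60.5% for Car3 and 93.4%, 47.9% and 88.9% for Slc4a4.

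Most sham BA-like nuclei held a UMI of Car3, and most held one of Slc4a4. At the full depth, with a median of 1899, 1424.5 and 899 UMIs per BA-like nucleus, 63.5%, 85.5% and 54.2% of BA-like nuclei had a Car3 UMI and 22.2%, 78.8% and 18.8% had a Slc4a4 UMI. At 500 UMIs per nucleus, with 6, 185 and 531 shallower nuclei left out, the shares were 32.6%, 68.5% and 39.5% for Car3 and 6.56%, 52.1% and 11.1% for Slc4a4. EC-like nuclei, taken as the background for these adipocyte genes, had a median of 654.5, 508 and 358.5 UMIs, and 1728, 2623 and 1660 were too shallow to enter. The rest had shares of 10.8%, 23.1% and 24.1% for Car3 and 1.16%, 3.01% and 1.57% for Slc4a4 at that depth.

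Nuclei with Car3 and nuclei with Slc4a4 were not separate sets. At 500 UMIs, Slc4a4 was found in 51.6% [49.5 to 53.7, exact binomial] of sham BA-like nuclei with a Car3 UMI and in 53.2% [50.1 to 56.3] of those without. The shares were 6.88% [5.60 to 8.36] and 6.40% [5.53 to 7.37] in the untreated library and 12.1% [10.7 to 13.7] and 10.4% [9.26 to 11.6] in the denervated library. The intervals overlapped in each library.

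**Figure D3:**
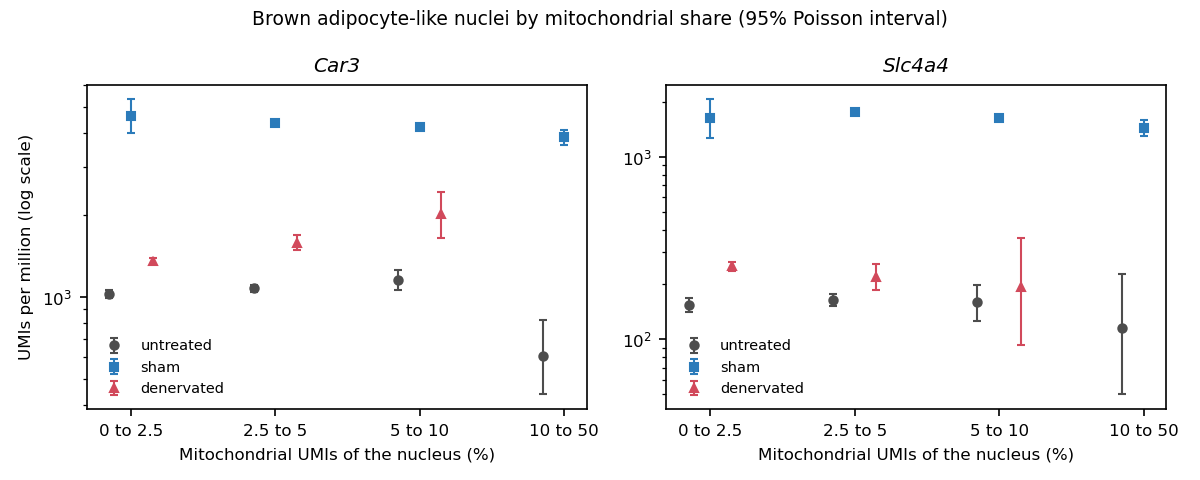
Car3 and Slc4a4 in brown adipocyte-like nuclei, in CPM (log axis), by the nucleus's share of mitochondrial UMIs (%), with 95% Poisson intervals and the symbols by library; bins of under 20 nuclei are left out. The sham points lie above those of every other library plotted in the same bin; the highest bin has no denervated point.

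Since the sham library held most mitochondrial RNA, BA-like nuclei were also compared at a matched mitochondrial share. At 2.5% to 5%, the 2168 untreated, 966 sham and 667 denervated nuclei had 1077, 4373 and 1583 CPM of Car3 and 165, 1759 and 220 CPM of Slc4a4. At 5% to 10%, the 262, 2151 and 60 nuclei had 1155, 4220 and 2008 CPM of Car3 and 160, 1637 and 195 CPM of Slc4a4. By depth, Car3 was 967, 4587 and 1391 CPM in nuclei with under 1000 UMIs, 1104, 4079 and 1388 CPM at 1000 to 2000 UMIs and 1026, 4516 and 1370 CPM above. Slc4a4 was 168, 1693 and 223 CPM at 1000 to 2000 UMIs and 149, 1606 and 236 CPM above, so the denervated and untreated intervals did not overlap in these bins but did in the shallow nuclei. The sham level, by which both genes were chosen, was above both others in each of these bins of either kind. The denervated bin of 60 nuclei came nearer to it for Car3. This describes the chosen values, and the part of mitochondrial share or depth in them was not tested.

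Sub-clusters of BA-like nuclei differed in both genes. In the sham library the largest one was lowest in Car3 and highest in Slc4a4, while the others overlapped in Slc4a4. There, 742 nuclei led by the stress-response genes Jun and Atf3 had 6629 CPM [6479 to 6782] of Car3, against 3496 [3435 to 3559] in the largest sub-cluster of 2192 nuclei and 4238 [4009 to 4477] in 470 others. Slc4a4 was 1451 [1382 to 1524], 1744 [1700 to 1788] and 1491 [1357 to 1635] CPM in the same sub-clusters. In the untreated library, 615 nuclei led by the heat-shock genes Hspa1a and Hspa1b had 1224 CPM [1146 to 1307] of Car3 and 232 [198 to 269] of Slc4a4, against 1039 [1016 to 1063] and 153 [144 to 162] in the other 3584. The 3 sham sub-clusters all lay above every BA-like sub-cluster of the other libraries, where Car3 reached at most 1533 CPM and Slc4a4 at most 287 CPM. The sham WA-like nuclei fell into sub-clusters of 713 and 76 nuclei with 15625 and 16727 CPM of Car3.

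Car4 (chromosome 11, 84957786 to 84966044, plus strand, GRCm38), the membrane-anchored enzyme, was an endothelial gene. EC-like nuclei had 435 CPM [414 to 458] in the untreated, 961 [928 to 996] in the sham and 305 [272 to 342] in the denervated library. BA-like nuclei had 19.9 [17.0 to 23.3], 44.0 [38.3 to 50.2] and 12.5 [9.68 to 16.0] CPM and WA-like nuclei 30.3 [11.1 to 65.9], 59.6 [44.2 to 78.6] and 26.7 [16.3 to 41.3]. The log2 ratio of EC-like over BA-like nuclei was 4.45 [4.21 to 4.69], 4.45 [4.25 to 4.66] and 4.61 [4.21 to 5.02], with intervals that overlapped.

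A log2 ratio of at least 1 for EC-like over BA-like nuclei was held by 20.2%, 20.2% and 21.0% of genes with a mean of at least 10 CPM over both. Of the 5 genes, Car4 passed it in all 3 libraries and Car5b in the denervated one. The barcodes with under 200 genes had 163, 432 and 265 CPM of Car4, well above BA-like nuclei. With that free RNA subtracted, the 3 Car4 ratios were 5.55 [5.25 to 5.88], 6.33 [5.97 to 6.71] and 5.88 [5.31 to 6.50]. Those of the untreated and sham libraries did not overlap, but nothing is read from this, as the intervals leave out the error of the free shares. In BA-like nuclei 11.7, 13.9 and 6.01 CPM were left. Whether some of the barcodes with under 200 genes held shallow EC-like nuclei was not tested.

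PC-like nuclei had 16.4 [7.06 to 32.2], 77.5 [62.0 to 95.8] and 34.9 [18.6 to 59.6] CPM of Car4. Immune-like nuclei had 15.9 CPM [0.403 to 88.8] from 1 UMI, 356 [223 to 539] from 22 UMIs and 6.85 [0.173 to 38.2] from 1 UMI. The endothelial list summed to 478, 4387 and 630 CPM in these immune-like nuclei, and its part in their Car4 level was not tested.

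Within EC-like nuclei of the untreated and sham libraries, Car4 was lowest in the clusters with arterial or venous markers. In the sham library the 2 large clusters, of 2712 and 2372 nuclei, had 988 CPM [940 to 1038] and 1013 [962 to 1065]. The 243 nuclei with 7 of 7 arterial markers at least 2-fold above the other EC-like nuclei, led by Fbln5 and with the artery gene Sema3g, had 446 CPM [338 to 577]. The 91 nuclei with 7 of 7 venous markers, led by Plvap and Vwf, had 153 CPM [73.1 to 281]. The untreated library had the same order, with 489 CPM [461 to 518] in 2744 nuclei led by the water channel gene Aqp1, 249 [192 to 318] in 335 nuclei with 7 of 7 arterial markers and 52.1 [6.31 to 188] in 27 nuclei with 6 of 7 venous markers, the last from 2 UMIs. The other 2 untreated clusters had 387 [325 to 457] and 333 [282 to 391] CPM, the latter overlapping the arterial one. The denervated library gave 2 clusters, neither with over 2 markers of either kind, at 323 [282 to 367] and 261 [204 to 329] CPM. Haemoglobin genes also led the large untreated cluster, so blood RNA was present in it.

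**Figure D4:**
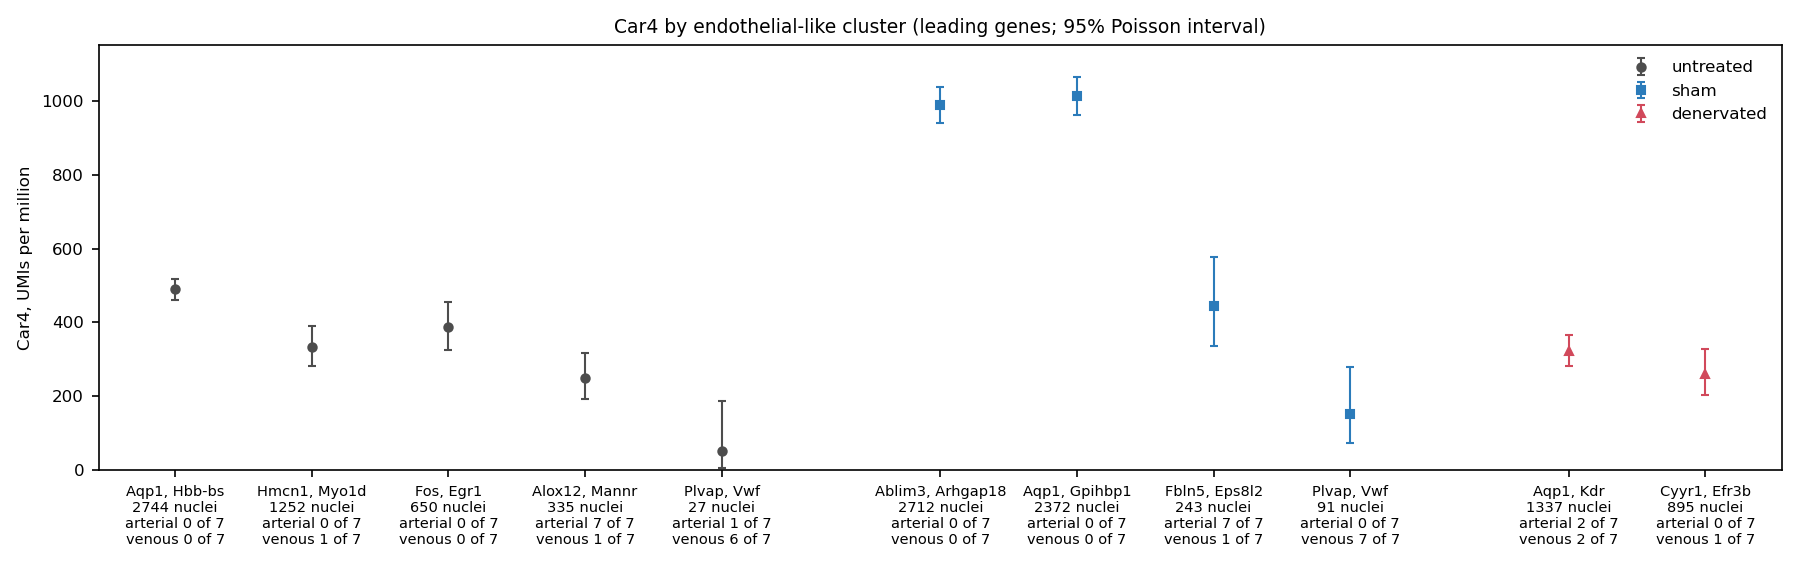
Car4 in CPM, with 95% Poisson intervals, in each endothelial-like cluster of the untreated (circles), sham (squares) and denervated (triangles) libraries. Labels give the 2 leading genes, the number of nuclei and how many of 7 arterial and 7 venous markers were at least 2-fold above the other endothelial-like nuclei; in the untreated and sham libraries the arterial and venous clusters lie lowest.

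Between libraries, Car4 in EC-like nuclei had a log2 ratio of 1.14 [1.05 to 1.23] for sham over untreated, -0.51 [-0.70 to -0.33] for denervated over untreated and -1.65 [-1.83 to -1.48] for denervated over sham. The denervated over untreated difference varied with the mitochondrial share. Below 2.5%, the 779, 475 and 820 EC-like nuclei had 266 [210 to 333], 983 [847 to 1134] and 242 [190 to 305] CPM, so the untreated and denervated intervals overlapped. At 5% to 10%, the 1878, 1674 and 578 nuclei had 476 [441 to 513], 1021 [960 to 1084] and 343 [278 to 419] CPM, and no intervals overlapped. At 2.5% to 5%, untreated and denervated nuclei had 460 [396 to 532] and 343 [274 to 425] CPM. At 10% to 50% they had 420 [386 to 456] and 298 [220 to 396] CPM. The denervated level was lower in both of these bins, but the intervals overlapped. Of the genes with a mean of at least 10 CPM in EC-like nuclei, 2.96% had a log2 ratio of at least 1 for sham over untreated, and so did 3 of the 4 genes of the group that met this mean, Car3, Car4 and Slc4a4. Nothing is read from this count, since Car3 and Slc4a4 were chosen on sham values. Both came to 0 CPM in sham EC-like nuclei with free RNA subtracted. That follows from the free share of 94.9% set from the adipocyte list, since both genes lay well below their free levels. Car4 was not chosen on sham adipocyte values, yet the same library was highest, and it is also the library with most free RNA of the gene. With free RNA subtracted, EC-like nuclei had 552, 1119 and 355 CPM, in the same order, values that rest on free shares set from the same list. At 500 UMIs per nucleus, 18.2%, 33.8% and 14.2% of 3280, 2795 and 572 EC-like nuclei had a Car4 UMI, against 1.12%, 1.99% and 0.634% of BA-like nuclei.

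Car2 (chromosome 3, 14886273 to 14900770, plus strand, GRCm38), the fast cytosolic enzyme, was low. It lies 13749 bases past Car3 with no annotated gene between, but it was not led by adipocytes in the untreated library. PC-like nuclei had 73.6 CPM [51.5 to 102], 55.9 [42.9 to 71.7] and 32.2 [16.6 to 56.2]. Smooth muscle-like nuclei held it too, with 3 of 60343 UMIs in the untreated and 16 of 270456 in the sham library. BA-like nuclei had 18.7 [15.9 to 21.9], 17.8 [14.3 to 21.96] and 20.3 [16.6 to 24.5] CPM, intervals that overlapped. PC-like stood above BA-like nuclei by log2 ratios of 1.97 [1.41 to 2.51], 1.65 [1.16 to 2.13] and, with an interval that holds 0, 0.67 [-0.33 to 1.53]. The BA-like log2 ratio of denervated over sham was 0.19 [-0.24 to 0.61].

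EC-like nuclei held almost no Car2, with 12, 13 and 3 UMIs or 3.47, 3.94 and 3.04 CPM. PC-like nuclei stood above them by log2 ratios of 4.41 [3.43 to 5.48], 3.83 [2.95 to 4.81] and 3.402 [1.51 to 5.87]. WA-like nuclei had 1, 42 and 4 UMIs, or 5.05 [0.128 to 28.1], 50.1 [36.1 to 67.7] and 5.34 [1.46 to 13.7] CPM. All 42 of the sham UMIs came from the WA-like sub-cluster of 713 nuclei, and the other, of 76 nuclei, had none, where 3 counts, the limit set for a count of 0, would be 27.2 CPM.

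Car5b (chromosome X, 163976822 to 164027997, minus strand, GRCm38), the mitochondrial enzyme, was highest in WA-like nuclei of the sham library. WA-like nuclei had 55.5 CPM [27.7 to 99.4], 107 [86.3 to 132] and 33.4 [21.6 to 49.3], against 14.3 [11.8 to 17.2], 23.7 [19.6 to 28.4] and 11.97 [9.18 to 15.3] in BA-like nuclei. The log2 ratios of WA-like over BA-like nuclei were 1.96 [0.91 to 2.85], 2.18 [1.77 to 2.59] and 1.481 [0.75 to 2.17]. EC-like nuclei had 24.3 [19.4 to 30.1], 25.1 [20.03 to 31.2] and 35.5 [24.7 to 49.4] CPM and PC-like nuclei 26.6 [14.2 to 45.4], 35.2 [25.01 to 48.1] and 13.4 [4.35 to 31.3]. In BA-like nuclei the log2 ratio was 0.73 [0.34 to 1.11] for sham over untreated and -0.99 [-1.45 to -0.53] for denervated over sham, and in EC-like nuclei it was 0.05 [-0.41 to 0.50] and 0.50 [-0.12 to 1.08].

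Each gene also had its nearest partners in pattern, taken as the 3 genes with the highest Pearson r of log2(CPM + 10) over 19 combinations of class and library. The points share libraries and depth, so r is a description. Among the genes most like Car3 were Acsl1 (r = 0.94), an enzyme of fatty acid activation, and Sh3pxd2a (r = 0.94). Acsl1 had 1656, 3563 and 1534 CPM in WA-like and 759.9, 1504 and 710 CPM in BA-like nuclei. Car4 was most like Rassf9 (r = 0.97), the anion transporter family gene Slc26a10 (r = 0.96) and Bmp6 (r = 0.96), which had 546, 803 and 350 CPM in EC-like nuclei.

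The other partners were looser. Car5b was most like Cyp2e1 (r = 0.82), Hs3st3b1 (r = 0.82) and D930016D06Rik (r = 0.81), Car2 most like Pard6g (r = 0.91), 9230104L09Rik (r = 0.87) and L3mbtl3 (r = 0.83), and Slc4a4 most like Gk (r = 0.84), Auh (r = 0.81) and Fbxo31 (r = 0.81). Gk, glycerol kinase, is itself on the brown marker list used to name the nuclei, and had 58.3, 201 and 103 CPM in BA-like nuclei.

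Of the 49 genes of the wider pathway list, 48 had a column in a table, all but Car15. Among carbonic anhydrases, 12 of 15 reached 20 CPM in a class of at least 50 nuclei. Car7 joined Car4 in the endothelium, with 83.6, 56.3 and 56.8 CPM in EC-like and 10.03, 7.90 and 5.98 CPM in BA-like nuclei. Car11, a relative without enzyme activity, had 24.96, 54.3 and 24.5 CPM in BA-like nuclei and 4.05, 2.73 and 4.06 CPM in EC-like nuclei. PC-like nuclei had 36.8, 36.1 and 32.2 CPM of it, and it peaked at 106 CPM in sham Schwann-like nuclei, from 8 UMIs. The other members to reach 20 CPM, Car1, Car5a, Car8, Car10, Car12 and Car14, peaked at 25.2 to 50.4 CPM from 1 to 6 UMIs, in classes of at most 250 nuclei.

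Among bicarbonate and other anion transporters, 10 of 19 reached 20 CPM. Slc4a8, another sodium-dependent bicarbonate transporter, had 100 CPM, 385 CPM and 69.7 CPM in PC-like nuclei. It had at most 7.27 CPM in BA-like, WA-like and EC-like nuclei. Over all classes of at least 50 nuclei it reached 20 CPM in 5 combinations of class and library, so not in PC-like nuclei alone. Slc26a10 was an endothelial gene, with 134, 267 and 91.3 CPM in EC-like and 5.51, 7.49 and 3.67 CPM in BA-like nuclei. Slc4a2, a chloride and bicarbonate exchanger, had 22.6, 66.6 and 24.5 CPM in BA-like nuclei, a log2 ratio of 1.56 [1.29 to 1.83] for sham over untreated. Slc4a7 differed little in BA-like nuclei, with 44.5, 42.9 and 47.5 CPM, but had 85.8, 45.3 and 147 CPM in WA-like nuclei. Slc26a2 had 67.2, 50.4 and 62.7 CPM in BA-like nuclei and Slc26a11 19.6, 26.7 and 27.03 CPM. Slc4a3, Slc4a10 and Slc4a11 peaked at 25.2 to 59.2 CPM outside the adipocytes, from 16, 1 and 13 UMIs.

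Among the listed enzymes that use bicarbonate, most of them carboxylases, Acaca stood out as lower in the sham library. Acaca, the cytosolic acetyl-CoA carboxylase of fatty acid synthesis, had 6127, 2244 and 6821 CPM in BA-like nuclei, a log2 ratio of -1.45 [-1.48 to -1.42] for sham over untreated. It was the 1 of these 8 enzymes lower by at least 1, as were 7.26% of all genes tested in BA-like nuclei, and none was higher by as much. Acacb, its mitochondrial membrane relative, had 1352, 1817 and 1611 CPM, and the pyruvate carboxylase gene Pcx 453, 353 and 437 CPM. Pcca, Pccb, Mccc1, Mccc2 and Cad had log2 ratios of -0.77 to 0.31, and the median of the 8 was -0.40 for sham over untreated and -0.06 for denervated over untreated.

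Of the 5 partners in pH control, Adcy10, the bicarbonate-sensing adenylyl cyclase, had 110, 29.4 and 111 CPM in BA-like nuclei, a log2 ratio of -1.91 [-2.17 to -1.65] for sham over untreated. Ahcyl1, whose product IRBIT binds and activates NBCe1, had 469, 636 and 494 CPM, and Ahcyl2 293, 176 and 293 CPM. Aqp1 was led by EC-like nuclei, with 3809, 2664 and 3379 CPM, so unlike Car4 it was not highest in the sham library.

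Of the 10 carbonic anhydrases tested in BA-like nuclei, 3 were higher for sham over untreated by a log2 ratio of at least 1. Of all genes, 6.98% were higher by as much. Among the 3 were the chosen Car3, and Car4, which lay below its free RNA level in these nuclei. Lower by as much was 1, Car13, beside 7.26% of all genes. Car1 was the 1 that was higher for denervated over untreated, beside 1.94% of all genes. Of the 6 transporters, 2 were higher for sham over untreated, Slc4a2 and the chosen Slc4a4, and 0 for denervated over untreated. With so few genes in each list, little can be read from these counts. The median log2 ratio of denervated over untreated was 0.04 for the carbonic anhydrases and 0.22 for the transporters.

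**Figure D5:**
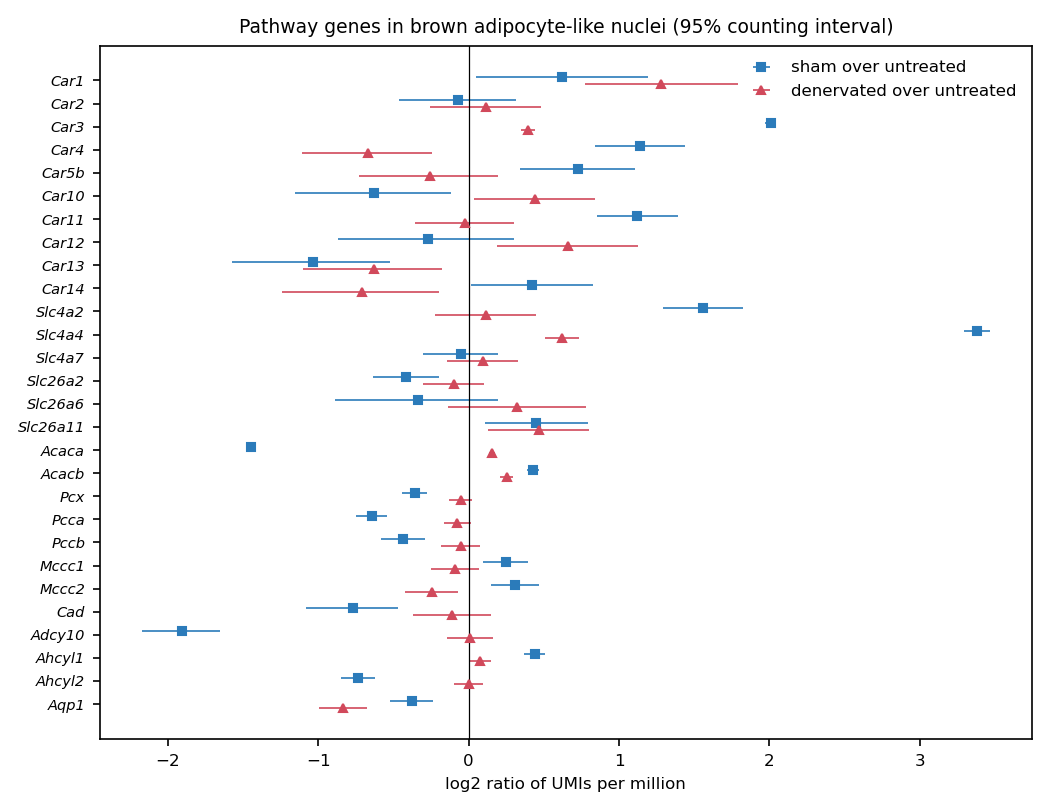
log2 ratios of CPM in brown adipocyte-like nuclei, sham over untreated (squares) and denervated over untreated (triangles), for the listed genes reported here with a mean of at least 10 CPM there, with 95% counting intervals. Slc4a4 lies farthest to the right at 3.38 and Adcy10 farthest to the left at -1.91, both for the sham library.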

How the data were processed

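Nuclear RNA was measured in 3 BD Rhapsody libraries, 1 per condition. The values deposited by the authors are raw UMI counts, whole and not normalized, for each nucleus and gene. Per the file headers, the untreated and denervated tables were made with the BD Rhapsody pipeline 1.9 on GRCm38 and GENCODE vM19. The submitters' processing notes list GRCh38, a human build, for all 3 samples, against those headers. The sham table has no header, so nothing in it settles which build it used, though its gene names are those of the mouse.

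A barcode was kept if it had 200 or more genes and no more than 50% of its UMIs from mitochondria. Doublets were called where 2 marker lists of different cell types each had 3 or more UMIs and the smaller sum came to 25% or more of the larger. The 10565, 11711 and 9686 nuclei left had a median of 981, 739 and 686 UMIs. Clustering ran within each library on 2000 variable genes, none from the pathway list, using 30 principal components, 20 neighbours per nucleus and Louvain communities (resolution 0.5). A class name needed 3 markers that were 2-fold up with 3 UMIs each. Adipocyte nuclei were clustered again and split into brown and white, and 451, 63 and 322 of them stayed unnamed. The naming rule was chosen with the clusters in view, and the genes and lists with earlier results of these data known. Classes are rebuilt here and may differ from those of the study.

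UMIs were summed per class. Intervals at the 95% level were Poisson for CPM, Clopper-Pearson for shares and conditional binomial for log2 ratios. No test between conditions was possible with 1 library each. Ratios across all genes used those with a mean of at least 10 CPM over the groups compared. Genes named are the 5 members, pathway genes with at least 20 CPM in a class of at least 50 nuclei, the 3 genes most like each member among those with at least 50 CPM somewhere, markers and leading genes of clusters. Car13 and Car15 were named in addition, after their values were seen, because counts of 1 fell on them. A few genes that the rule names are not reported here. The signs and intervals of log2 ratios were checked on simulated Poisson counts with known folds. Such draws hold counting error only, so they do not bear on other spread in the real data. Positions are from the GENCODE annotation of GRCm38 and promoters from RefSeq, which held windows for 3 of the 5 genes. The alternatives were other filters, clustering, denominators, scaling, free RNA subtraction and thinning. Python 3.11.15, numpy 2.4.6, scipy 1.17.1, scikit-learn 1.9.0 and python-igraph 0.11.9 were used.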

Additional observations from a re-analysis of the deposited data

How the results depend on the processing

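The 11 main ratios were recomputed under 9 other settings and 2 more chosen after seeing the data, 121 log2 values in all. Of these, 86 stayed within the counting interval of the value reported, 35 left it, and no ratio whose interval left out 0 changed sign. For Car3 in BA-like nuclei, sham over untreated was 1.95 with at most 10% mitochondrial UMIs, 1.97 with doublets kept, 1.96 at resolution 1, 1.96 with the pathway genes kept in the clustering, 2.06 per non-mitochondrial UMI and 2.10 with median-of-ratios scaling. Denervated over sham for Car3 was -1.56 at 10% mitochondrial UMIs, -1.68 per non-mitochondrial UMI, -1.83 with median-of-ratios scaling and -1.67 with free RNA subtracted, and denervated over untreated was 0.27 with that scaling. For Slc4a4, the scaling gave 3.47 for sham over untreated, 0.50 for denervated over untreated and -2.97 for denervated over sham, and thinning to 500 UMIs gave 3.49, 0.83 and -2.66.

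In the largest BA-like sub-cluster alone, the same 3 ratios were 1.75, 0.56 and -1.19 for Car3 and 3.51, 0.91 and -2.60 for Slc4a4. Over all adipocyte nuclei, where more white ones entered from the sham and denervated libraries, they were 2.32, 0.79 and -1.53 for Car3, and sham over untreated and denervated over sham were 3.21 and -2.63 for Slc4a4. Car2, denervated over sham, was 0.65 thinned and -0.32 over all adipocytes. Car4, EC-like over BA-like, was 5.55, 6.33 and 5.88 with free RNA subtracted, 4.20 thinned in the untreated library and 4.18 in the denervated library with at least 500 genes per nucleus. Beyond these constructions the cause of each shift was not tested.

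No paired analysis was possible because each condition has 1 library. Depth limits Car2 and Car5b, with 3 to 153 UMIs per class in EC-like and BA-like nuclei, and differences between animals, operations or library preparations cannot be told apart from the condition.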
